A study of Mus musculus with 24 samples.

Results

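The phagocyte NADPH oxidase subunits described here are 5 genes, Cybb, Cyba, Ncf1, Ncf4 and Rac2, chosen by symbol from the 35770 named genes of the deposited table. All 5 passed the filter on low values. RNA was sequenced from primary murine bone marrow-derived macrophages (BMDMs), which were grown from the marrow of C57BL/6 mice with the growth factor M-CSF. BMDMs were given either control media or conditioned media (CM) of LL2 cells, a murine lung carcinoma line, at 75% of the culture volume, collected after 48 h on the cancer cells. The LL2 cells were WT, KEAP1 KO or NRF2 KO, so that the knockouts were in the cancer cells and the macrophages carried none. BMDMs were treated for 24 h with vehicle or with 100 nM CDDO-Me, a synthetic oleanane triterpenoid that activates NRF2. This gave 8 groups of 3 libraries each, 24 in all, which are named by media and treatment (media/vehicle for naïve BMDMs, WT/vehicle, KEAP1 KO/vehicle, NRF2 KO/vehicle, and the same 4 with CDDO-Me). The samples were labelled as independent, but nothing said whether they came from separate mice, so the p-values measure only the spread between these samples, which may be technical.

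The phagocyte NADPH oxidase moves electrons from NADPH across the membrane of the phagosome or cell surface onto oxygen and makes superoxide, the first product of the respiratory burst with which macrophages and neutrophils kill microbes. Its catalytic core is flavocytochrome b558, a heterodimer of gp91phox (NOX2, from Cybb) and p22phox (from Cyba). In resting cells, p47phox (from Ncf1) and p40phox (from Ncf4) are held in the cytosol, and after phosphorylation of p47phox they join the core together with a GTP-bound Rac protein. Loss of a phox subunit causes chronic granulomatous disease in humans. Transcript levels say how much of each message was present and not whether the complex was assembled or active.

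The region before the start site was shown for Cybb and Ncf1 because these 2 genes rose together in the comparisons with CDDO-Me given further on, and for Cyba as the partner of Cybb. RefSeq promoter sequences were matched for 3 of the 5 members, and each had 1 exact match in GRCm39. Each run is the 250 bases before the RefSeq start, written 5′ to 3′ on the gene's strand, which is the minus strand for all 3. The windows lie at chrX:9335564-9335813 for Cybb, chr8:123159680-123159929 for Cyba and chr5:134258480-134258729 for Ncf1. Against the gene spans given below, from another annotation, the Cybb window lies inside the span and the Cyba window overlaps its end. Positions before the start hold for the RefSeq start only. Capitals mark matches on either strand to an IRF element (GAAANNGAAA) or a GAS element (TTCNNNGAA), sequences known from interferon-responsive promoters.
Cybb: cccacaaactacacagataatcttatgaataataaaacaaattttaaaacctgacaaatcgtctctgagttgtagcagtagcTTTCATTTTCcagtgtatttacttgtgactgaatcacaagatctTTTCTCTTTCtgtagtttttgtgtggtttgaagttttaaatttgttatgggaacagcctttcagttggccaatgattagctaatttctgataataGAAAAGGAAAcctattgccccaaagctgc
Cyba: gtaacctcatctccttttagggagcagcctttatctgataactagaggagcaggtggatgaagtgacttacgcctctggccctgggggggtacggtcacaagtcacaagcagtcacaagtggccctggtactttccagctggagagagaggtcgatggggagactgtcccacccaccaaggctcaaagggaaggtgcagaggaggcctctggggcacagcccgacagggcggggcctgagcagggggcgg
Ncf1: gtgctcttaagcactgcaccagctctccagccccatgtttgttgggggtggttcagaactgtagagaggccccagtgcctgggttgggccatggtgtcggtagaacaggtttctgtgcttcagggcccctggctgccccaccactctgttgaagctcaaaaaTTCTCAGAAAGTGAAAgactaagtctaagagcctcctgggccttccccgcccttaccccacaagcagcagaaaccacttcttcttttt
The Cybb window held 3 IRF element matches, which began 168, 124 and 29 bases before the start. The Ncf1 window held 1 IRF element match, 82 bases before the start, overlapped by 1 GAS element match that began 88 bases before it. The Cyba window held neither. Of 32851 promoter windows of the same length, 2.98% held the IRF element and 7.02% the GAS element. The form GAGGAA of the PU.1 core, present in 23.3% of all windows, had no match in the 3 windows. Nor had the core of the antioxidant response element bound by NRF2 (TGACNNNGC), present in 10.2%. Shorter or other forms of these sequences were not searched, so a PU.1 site of other letters is not excluded. A match of letters is a description of the sequence only.

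On the GRCm39 annotation, Cybb spans chrX:9301491-9354010 (minus strand, 13 exons in its canonical transcript), Cyba chr8:123150422-123159706 (minus, 6 exons), Ncf1 chr5:134248907-134258479 (minus, 11 exons), Ncf4 chr15:78128982-78146784 (plus, 10 exons) and Rac2 chr15:78443367-78457429 (minus, 7 exons). The values were read as TPM, which are per transcript length. The sources used here do not settle whether they are instead length-scaled counts set to a fixed sum, in which case levels of different genes could not be compared; ranks and the size of a ratio of 2 genes hold for TPM only, while differences of 1 gene or 1 ratio between groups do not depend on it. Levels and overlaps of groups below are of TPM as deposited. Log2 differences were taken after scaling between libraries, by factors of 0.88 to 1.11, so groups that are narrowly apart before scaling can overlap after it. All 5 were abundant messages. In media/vehicle BMDMs, with 20432 genes above 0, Cyba ranked 53, Cybb 460, Rac2 482, Ncf4 667 and Ncf1 925. Across the 8 group means, Cybb had the widest range of the 5, with the highest mean 3.36 times the lowest, followed by Ncf4 at 2.12, Ncf1 at 2.08, Cyba at 1.48 and Rac2 at 1.30 times.

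Of the macrophage markers, 8 of 8 were tested, with a summed level of 14930 to 38390 TPM to which Lyz2 gave most. Single markers were called in comparisons with a called oxidase gene and also in comparisons without one. With CDDO-Me, 1 was called higher and 2 lower in media, 2 and 1 in WT CM, 2 and 1 in KEAP1 KO CM, and 2 and 2 in NRF2 KO CM. Of all genes, 6.02%, 27.9%, 28.8% and 9.61% were called in the same order. With WT CM under vehicle, 1 was higher and 2 lower than in media, where 7.23% of all genes were called. In WT CM, Cd68 went from a mean of 2109 to 725 TPM with CDDO-Me, and Fcgr1, an Fc receptor, from 50.5 to 479 TPM. Neutrophils also express the oxidase, and the 10 neutrophil markers summed to 11.9 to 38.7 TPM in vehicle libraries and 33.2 to 76.6 TPM in CDDO-Me libraries. S100a8, an alarmin that other myeloid cells also make, was called higher with CDDO-Me, by a log2 difference of 2.19 in WT CM, 2.54 in KEAP1 KO CM and 1.79 in NRF2 KO CM. It was the only 1 of the 5 neutrophil markers tested that was called. S100a9 had means of 8.25 and 9.75 TPM with vehicle and CDDO-Me in WT CM, and 8.43 and 10.7 TPM in KEAP1 KO CM. Ly6g, Mpo, Retnlg and Cxcr2 stayed below 1 TPM in all 24 libraries. Fibroblast markers, 8 of 8 tested, summed to 218.5 to 2514 TPM, and were at 262.6 to 740.5 TPM in WT/CDDO-Me and 218.5 to 980.9 TPM in KEAP1 KO/CDDO-Me against 663 to 1741 TPM in the matching vehicle groups. The sums for dendritic cell (4 genes), T and B cell (5), mast cell (3) and LL2 carcinoma cell (3) markers did not exceed 6.53 TPM. The dendritic cell sum was 3.58 to 5.16 TPM in WT/CDDO-Me and 2.47 to 3.17 TPM in KEAP1 KO/CDDO-Me, against at most 1.71 TPM in the other 6 groups. Of these genes, Xcr1 alone was called higher with CDDO-Me in both media, from means of 0.032 to 3.86 TPM in WT CM and 0.071 to 2.07 TPM in KEAP1 KO CM. Zbtb46, the other one tested, was not called and had lower means with CDDO-Me, 0.77 to 0.51 TPM and 0.97 to 0.60 TPM. Flt3 and Siglech stayed below 1 TPM in all 24 libraries. The part of other cells in the oxidase results was not tested, and in bulk RNA fewer cells of a type and less RNA per cell cannot be told apart. As a check of treatment, 6 or 7 of 7 NRF2 target genes rose with CDDO-Me in each of the 4 media; Nqo1, a quinone reductase, had a mean of 3.37 TPM in media/vehicle and, with CDDO-Me, of 134 TPM in media, 48.3 TPM in WT CM, 86.7 TPM in KEAP1 KO CM and 159.7 TPM in NRF2 KO CM. For 3 of the 7 the effect was called smaller in WT CM than in media; Nqo1 was not one of them (adjusted p = 0.11).

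In the NRF2 KO CM groups, replicate 3 of vehicle and replicate 3 of CDDO-Me stood apart from all others and touch every NRF2 KO result below. They had 15702 and 16299 genes above 0, against at least 17817 in the other 22. Transcripts rich in G and C were low in them: with genes split by transcript GC content into 5 bins of equal size, from the lowest bin to the highest, the median log2 difference from the other 2 libraries of the group went from 0.42 to -1.05 in the vehicle library and from 0.28 to -0.68 in the CDDO-Me library. The Cyba transcript has 59.8% GC, higher than 95% of the 8461 genes with a mean of at least 10 TPM, and the Cybb transcript 42.4%, higher than 10% of them. Ncf1 (52.8%), Ncf4 (55.8%) and Rac2 (53.2%) lie between. Because all 24 libraries shared 1 estimate of the spread, these 2 libraries widened the error of Cyba in every comparison. For CDDO-Me in WT CM, the SE of Cyba was 0.30 with them and 0.10 without. The other members were affected less, with 0.19 and 0.13 for Cybb, 0.22 and 0.18 for Rac2, 0.23 and 0.21 for Ncf4 and 0.15 and 0.13 for Ncf1. Results are given with and without these libraries where a call changed. The part of base composition in the results was not tested.

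**Figure D1:**
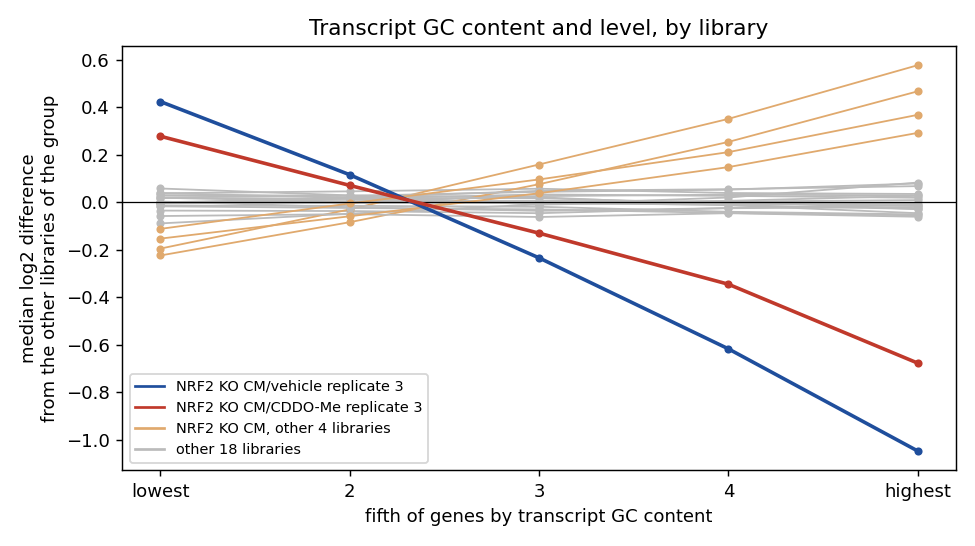
Each line is 1 of 24 libraries; the x axis gives 5 equal bins of 8461 genes by transcript GC content and the y axis the median log2 TPM difference from the other 2 libraries of the same group. The 2 coloured NRF2 KO replicate 3 libraries fall to -1.05 and -0.68 in the highest bin, and since each library is compared with its own group, the other 4 NRF2 KO libraries lean the opposite way.

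Cybb, the catalytic subunit gp91phox, was lower in BMDMs given WT or KEAP1 KO CM than in naïve BMDMs. Its levels in the 3 media/vehicle libraries were 304, 293 and 349.5 TPM. In WT/vehicle they were 167, 156 and 197 TPM, and in KEAP1 KO/vehicle 160.4, 152 and 158 TPM. All 6 libraries with these CM lay below all 3 naïve libraries. In NRF2 KO/vehicle, Cybb was at 323, 288 and 399.9 TPM, which overlapped the naïve group. With limma, the log2 difference from media was -0.79 (SE 0.19, adjusted p = 0.013) for WT CM and -0.997 (SE 0.19, adjusted p = 0.0019) for KEAP1 KO CM, or 0.58 and 0.50 times the naïve level. Of all 13661 genes tested, 7.23% were called with WT CM and 8.06% with KEAP1 KO CM; of the 5 members, Cybb alone was called in each. The WT CM call was lost when media/vehicle replicate 3 (adjusted p = 0.069), WT/vehicle replicate 1 (0.074) or WT/vehicle replicate 2 (0.074) was left out, and over all alternatives its difference ran the same way.

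Cybb was also lower with WT CM than with NRF2 KO CM, by -0.88 (SE 0.19, adjusted p = 0.0056), and lower with KEAP1 KO CM than with NRF2 KO CM, by -1.09 (SE 0.19, adjusted p = 0.00094). In those comparisons 10.6% and 9.04% of all genes were called. The 6 libraries with WT or KEAP1 KO CM, at most 197 TPM, did not overlap the 3 with NRF2 KO CM, the lowest of which had 288 TPM. Without both NRF2 KO replicate 3 libraries the differences were -0.70 and -0.91, with adjusted p of 0.0026 and 0.00028, while with only the compared groups in the fit both calls were lost (adjusted p = 0.14 and 0.077). No member was called between NRF2 KO CM and media, where 0.00732% of genes (1 of 13661) were called. Nor was a member called between KEAP1 KO CM and WT CM, where 0% of genes were called by limma and 350 had an unadjusted p under 0.05; with libraries weighted by quality, 975 genes were called there. KEAP1 KO CM and WT CM shared the same controls, and the Cybb levels of those 2 groups overlapped.

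Cyba, the p22phox partner that stabilises gp91phox, moved the same way as Cybb in some libraries but by less. It was at 1922, 1828 and 1829 TPM in media/vehicle, at 1497, 1537 and 1737 TPM in WT/vehicle and at 1404, 1403 and 1542.5 TPM in KEAP1 KO/vehicle. Before scaling, both CM groups lay below the naïve group without overlap. After scaling this held for KEAP1 KO CM, while WT CM overlapped the naïve group. Neither difference passed the test over 24 libraries (adjusted p = 0.89 and 0.62). NRF2 KO/vehicle libraries had 1713, 1599 and 471 TPM, the last from the library low in GC-rich transcripts. Without both NRF2 KO replicate 3 libraries, the Cyba difference between KEAP1 KO CM and media was -0.36 (SE 0.10, adjusted p = 0.017) against -0.36 (SE 0.30, adjusted p = 0.62) with them, and 21% of 13562 genes were called in that comparison. The log2 difference of NRF2 KO CM from media was -0.77 (SE 0.30, adjusted p = 0.41), and -0.21 (SE 0.11, adjusted p = 0.92) without those libraries.

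**Figure D2:**
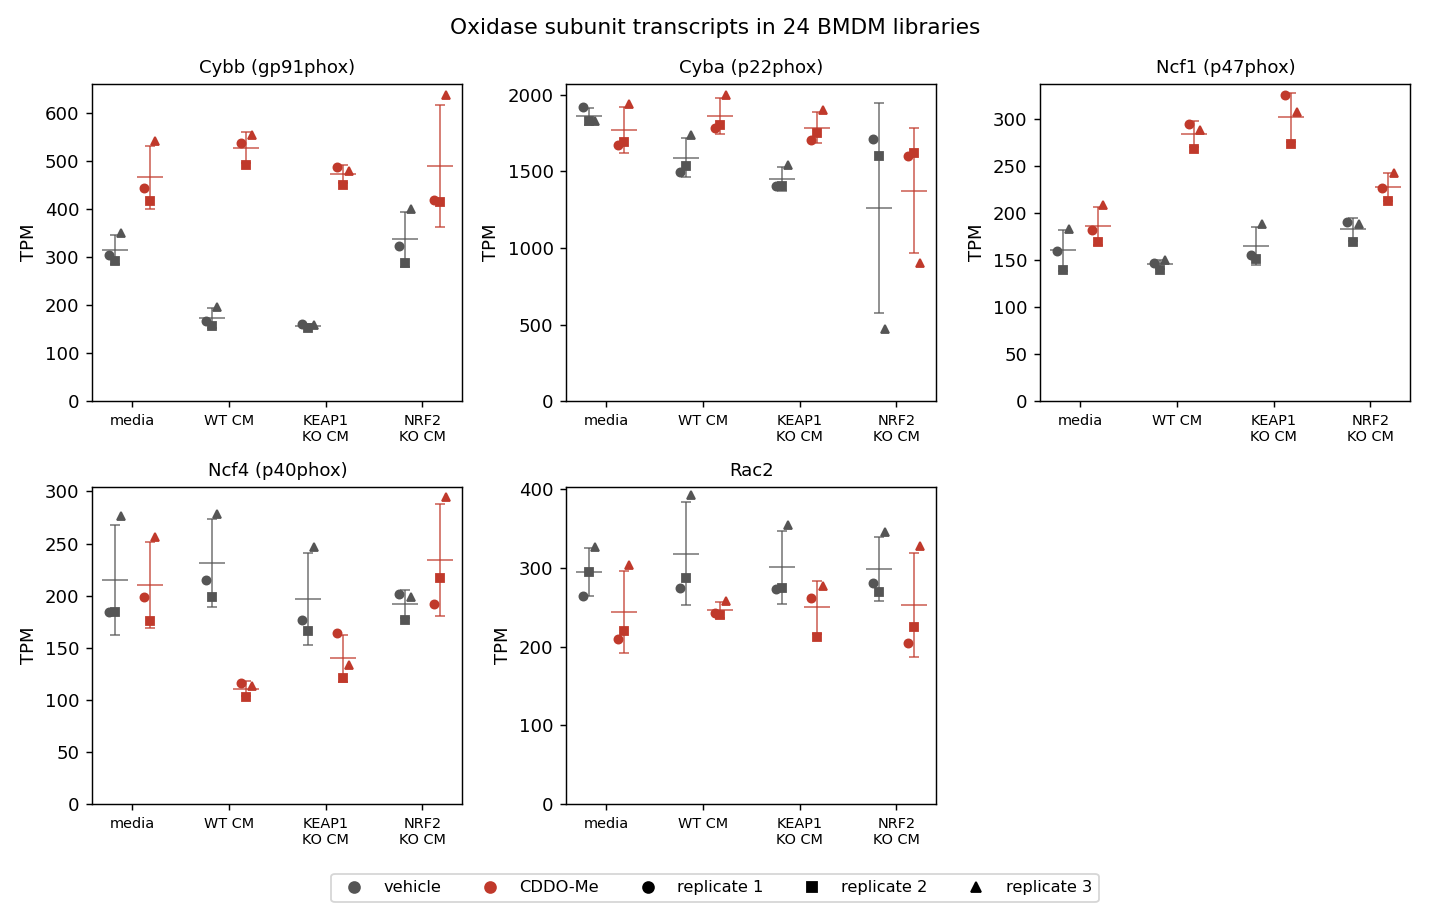
Levels in TPM (y axes, from 0) of the 5 members in each medium (x axes); symbols are single libraries, horizontal marks the mean and bars the SD of 3 libraries, in grey for vehicle and red for CDDO-Me. Cybb sits near 160 TPM with WT or KEAP1 KO CM and vehicle and near 500 TPM with CDDO-Me, and Cyba falls to 471 and 904 TPM in the 2 NRF2 KO replicate 3 libraries.

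None of the cytosolic subunits was called different from media under vehicle. Ncf1, whose p47phox organises assembly, was at 160, 139 and 183 TPM in media/vehicle, 147, 139.85 and 150.3 TPM in WT/vehicle, 156, 152 and 189 TPM in KEAP1 KO/vehicle and 191, 169 and 189 TPM in NRF2 KO/vehicle. Ncf4, whose p40phox binds phosphatidylinositol 3-phosphate on phagosomes, was at 185, 184 and 276 TPM, 215, 199 and 279 TPM, 177, 166 and 247 TPM, and 202, 177 and 198 TPM in the same order. Rac2, the haematopoietic Rac GTPase, was at 265, 295 and 326 TPM, 275, 287 and 393 TPM, 274, 274 and 355 TPM, and 281, 269 and 345 TPM. Against media, every one of these groups overlapped the naïve libraries, and the adjusted p ran from 0.49 to 0.99. Rac2 was highest in replicate 3 in 8 of 8 groups, Cybb in 6 of 8, and Cyba, Ncf1 and Ncf4 in 5 of 8 each. For Rac2 in particular, part of the spread within groups followed the replicate number.

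With CDDO-Me, Cybb rose in BMDMs given WT or KEAP1 KO CM, to levels at or above those of media/CDDO-Me. WT/CDDO-Me libraries had 537, 492 and 555 TPM and KEAP1 KO/CDDO-Me libraries 489, 451 and 479 TPM. All 6 lay far above the matching vehicle groups, where no library passed 197 TPM. The log2 difference was 1.74 (SE 0.19, adjusted p = 6.5e-07) in WT CM and 1.76 (SE 0.19, adjusted p = 5.7e-07) in KEAP1 KO CM, or 3.33 and 3.38 times. These comparisons called 27.9% and 28.8% of all genes, and of the 5 members 3 and 2. The median log2 difference of the 5 was 0.36 and 0.47, beside -0.01 and -0.02 over all genes.

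In media, CDDO-Me libraries had 443, 416 and 541 TPM of Cybb, above all 3 vehicle libraries, with a log2 difference of 0.58 (SE 0.19, adjusted p = 0.091). In NRF2 KO CM they had 419, 414 and 637 TPM, above all 3 vehicle libraries before scaling but not after it, with 0.56 (SE 0.19, adjusted p = 0.08). Neither passed the test over 24 libraries, where 6.02% and 9.61% of genes were called and no member was. With the replicate number as a block, Cybb was called in both, with adjusted p of 0.0026 and 0.0026, among 10.7% and 14.5% of genes. Same-numbered libraries deviated together in these 2 comparisons, but no label says what a replicate number shares. In NRF2 KO CM both replicate 3 libraries are those low in GC-rich transcripts. Without both NRF2 KO replicate 3 libraries Cybb was called in media (0.58, SE 0.13, adjusted p = 0.0042), among 14.9% of genes, and in NRF2 KO CM it was not (0.48, SE 0.16, adjusted p = 0.063). The media call was also gained without NRF2 KO/vehicle replicate 3 (0.043) or NRF2 KO/CDDO-Me replicate 3 (0.027). The NRF2 KO call was gained without NRF2 KO/vehicle replicate 3 (0.73, adjusted p = 0.019) or NRF2 KO/CDDO-Me replicate 2 (0.70, adjusted p = 0.041). Without scaling, Cybb was called in media (adjusted p = 0.029) and NRF2 KO CM (0.031), as it was with libraries weighted by quality (0.00026 and 0.0037). With only the compared groups in the fit it was called in media alone (adjusted p = 0.039).

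The effect of CDDO-Me on Cybb was larger in WT CM than in media, by 1.16 (SE 0.27, adjusted p = 0.0053), and larger in KEAP1 KO CM than in media, by 1.18 (SE 0.27, adjusted p = 0.0046). These tests of the difference called 15.3% and 14.8% of all genes and 2 of the 5 members each, Cybb and Ncf1, in the same direction. Under vehicle Cybb started lower in both CM, and under CDDO-Me the group means of the 4 media lay between 467 and 528 TPM, with neighbouring groups overlapping. The effect in NRF2 KO CM against that in media called 0% of genes (359 at an unadjusted p under 0.05; 7 genes with library weights), and that in KEAP1 KO CM against WT CM likewise 0% (224 at an unadjusted p under 0.05; 26 genes with library weights). For the latter, the difference on Cybb had a 95% interval from -0.55 to 0.59.

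Ncf1 rose with CDDO-Me in the same 2 media, in which it was not called different from media under vehicle. It was at 295, 269 and 289 TPM in WT/CDDO-Me and at 326, 274 and 308 TPM in KEAP1 KO/CDDO-Me, above every one of the other 18 libraries. In media/CDDO-Me it was at 182, 169 and 209 TPM and in NRF2 KO/CDDO-Me at 227.5, 214 and 243 TPM. The log2 difference between CDDO-Me and vehicle was 1.09 (SE 0.15, adjusted p = 7.2e-06) in WT CM and 1.04 (SE 0.15, adjusted p = 1.2e-05) in KEAP1 KO CM. In media it was not called (adjusted p = 0.52), and in NRF2 KO CM, where the groups did not overlap, it was 0.35 (SE 0.15, adjusted p = 0.16), and called with the replicate block (0.35, adjusted p = 0.0037). The effect was larger in WT CM than in media by 0.86 (SE 0.21, adjusted p = 0.0066) and in KEAP1 KO CM than in media by 0.81 (SE 0.21, adjusted p = 0.01).

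Ncf4 fell with CDDO-Me in WT CM. It was at 116, 102 and 114 TPM in WT/CDDO-Me, all below the 24-library median of 188 TPM. Before scaling these lay below every library of the other 7 groups, and after scaling they overlapped KEAP1 KO/CDDO-Me. The log2 difference from WT/vehicle was -0.91 (SE 0.23, adjusted p = 0.005), or 0.53 times. In KEAP1 KO/CDDO-Me it was at 165, 121 and 134 TPM, with a log2 difference of -0.31 (SE 0.23, adjusted p = 0.38). Before scaling these lay just below the 166 TPM of the lowest vehicle library, and after scaling they overlapped the vehicle libraries. In media/CDDO-Me, at 198, 176 and 256 TPM, and in NRF2 KO/CDDO-Me, at 192, 217 and 295 TPM, it overlapped the vehicle libraries. The effect in WT CM differed from that in media by -0.90 (SE 0.33, adjusted p = 0.072). Without both NRF2 KO replicate 3 libraries that difference was called (-0.91, SE 0.30, adjusted p = 0.029), among 28.3% of genes, as it was without media/vehicle replicate 3 (-1.10, adjusted p = 0.031) or NRF2 KO/CDDO-Me replicate 3 (adjusted p = 0.043). The effect in KEAP1 KO CM differed from that in WT CM by 0.60 (SE 0.33, adjusted p = 1), with a 95% interval from -0.08 to 1.29.

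Cyba and Rac2 had no call with CDDO-Me in the 24 libraries. Cyba was at 1669.9, 1694 and 1941 TPM in media/CDDO-Me, 1782, 1806 and 1997 TPM in WT/CDDO-Me, 1709, 1748.5 and 1901 TPM in KEAP1 KO/CDDO-Me and 1601, 1621 and 904 TPM in NRF2 KO/CDDO-Me. In WT CM and in KEAP1 KO CM all 3 CDDO-Me libraries lay above all 3 vehicle libraries, with log2 differences of 0.36 (SE 0.30, adjusted p = 0.44) and 0.47 (SE 0.30, adjusted p = 0.28). Without both NRF2 KO replicate 3 libraries these were 0.36 (SE 0.10, adjusted p = 0.0076) and 0.47 (SE 0.10, adjusted p = 0.00093), and were called, among 43% and 44.8% of genes. The effect was then also larger than in media, by 0.42 (SE 0.14, adjusted p = 0.037) in WT CM and 0.53 (SE 0.14, adjusted p = 0.0096) in KEAP1 KO CM, where 28.3% and 29.1% of genes were called; with all 24 libraries the same differences were 0.42 (SE 0.42, adjusted p = 0.65) and 0.53 (SE 0.42, adjusted p = 0.52). Leaving out NRF2 KO/vehicle replicate 3 alone was enough for the call in KEAP1 KO CM (adjusted p = 0.019).

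Rac2 had lower means with CDDO-Me than with vehicle in each of the 4 media, and none of the differences was called (adjusted p = 0.56 to 0.82). It was at 209, 219.99 and 304 TPM in media/CDDO-Me, 242, 239.98 and 259 TPM in WT/CDDO-Me, 262, 212 and 276 TPM in KEAP1 KO/CDDO-Me and 205, 225 and 328 TPM in NRF2 KO/CDDO-Me. Only in WT CM did the CDDO-Me libraries stay clear of the vehicle libraries, by 275 against 259 TPM before scaling, and after it they overlapped. Weighting the libraries by their quality gave a call for Rac2 in media alone (-0.39, adjusted p = 0.023).

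**Figure D3:**
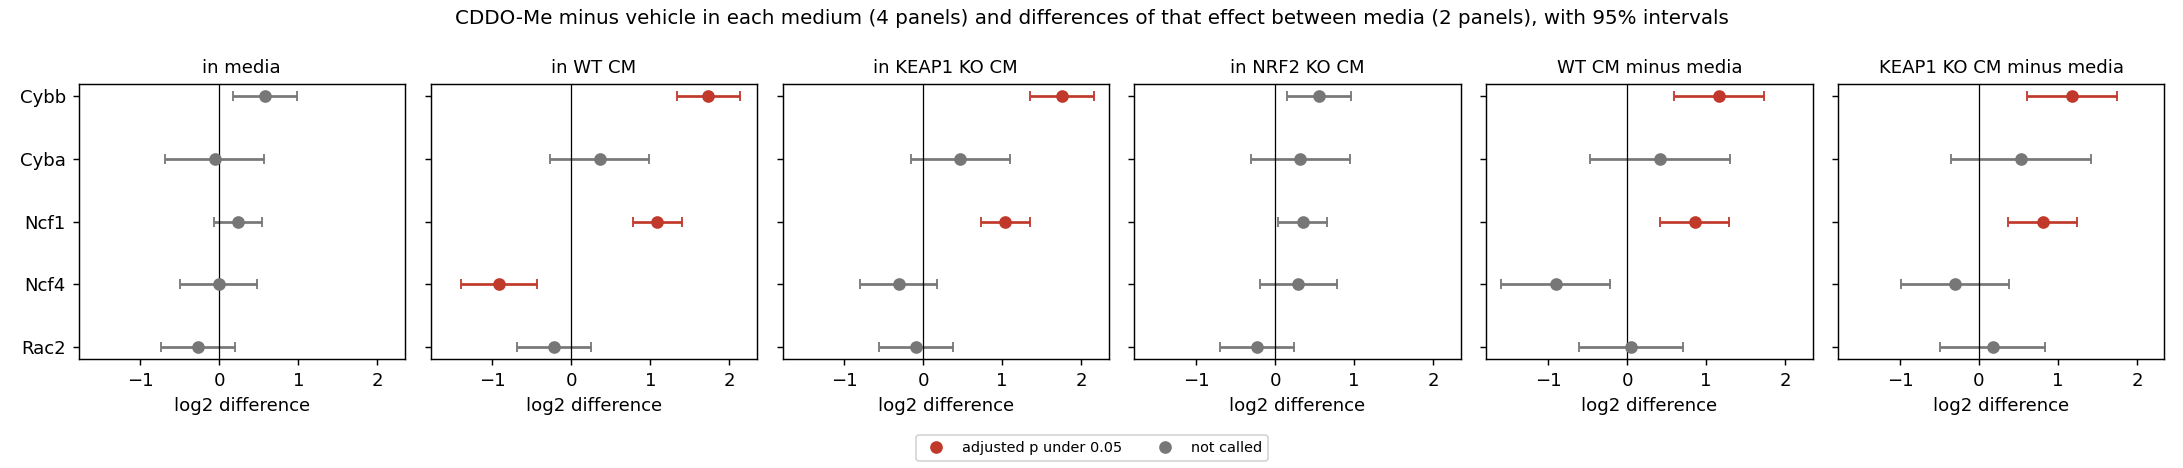
Points are log2 differences (x axes) of the 5 members between CDDO-Me and vehicle in each of 4 media, and differences of that effect between a CM and media in the last 2 panels, from limma over 24 libraries; bars are 95% intervals. Cybb and Ncf1 are called in WT and KEAP1 KO CM and in both differences, Ncf4 is called lower in WT CM, and the intervals of Rac2 span 0 in all 6 panels.

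Compared with naïve media/vehicle BMDMs, groups with both CM and CDDO-Me had more Cybb and Ncf1. The log2 difference of Cybb was 0.95 (SE 0.19, adjusted p = 0.00079) for WT/CDDO-Me, 0.76 (SE 0.19, adjusted p = 0.0053) for KEAP1 KO/CDDO-Me and 0.64 (SE 0.19, adjusted p = 0.037) for NRF2 KO/CDDO-Me. That of Ncf1 was 1.03 (SE 0.15, adjusted p = 1.6e-05), 1.08 (SE 0.15, adjusted p = 9.2e-06) and 0.54 (SE 0.15, adjusted p = 0.02). Ncf4 was lower in WT/CDDO-Me by -0.73 (SE 0.23, adjusted p = 0.024). In KEAP1 KO/CDDO-Me it was at -0.43 (SE 0.23, adjusted p = 0.2). It was called there with the replicate block (adjusted p = 0.023, among 32.9% of genes) and without scaling between libraries (-0.60, adjusted p = 0.028). Of all genes, 26.8%, 25.9% and 10.2% were called in the 3 comparisons, which share the media/vehicle libraries, and of the 5 members 3, 2 and 2.

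The NRF2 KO/CDDO-Me calls were the least stable. Without both NRF2 KO replicate 3 libraries neither member was called, with Cybb at 0.39 (adjusted p = 0.078) and Ncf1 at 0.45 (adjusted p = 0.056), among 14.5% of genes. The Cybb call was also lost without media/vehicle replicate 1 (0.11) or 2 (0.13), WT/vehicle replicate 1 (0.064) or NRF2 KO/CDDO-Me replicate 3 (0.24). It was lost without the filter on low values as well (0.067). The Ncf1 call was lost without media/vehicle replicate 1 (0.062) or 2 (0.12) or NRF2 KO/CDDO-Me replicate 3 (0.11). With only the compared groups in the fit, both calls were lost (0.19 and 0.11). These values are adjusted p. The Ncf4 call in WT/CDDO-Me was lost without media/vehicle replicate 3 (-0.53, adjusted p = 0.14) or WT/CDDO-Me replicate 2 (-0.64, adjusted p = 0.088).

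In the order of group means, taken before scaling between libraries, neighbours mostly overlapped. For Cybb, the 4 CDDO-Me groups ranked highest, from 528 ± 32.4 TPM in WT/CDDO-Me to 467 ± 65.6 TPM in media/CDDO-Me (SD, n = 3), and were clear of the next, NRF2 KO/vehicle at 337 ± 57.2 TPM. Media/vehicle, at 315 ± 30.2 TPM, was clear of WT/vehicle at 173 ± 21.0 TPM, and KEAP1 KO/vehicle was lowest at 157 ± 4.22 TPM. For Ncf1, KEAP1 KO/CDDO-Me (302 ± 26.2 TPM) and WT/CDDO-Me (284 ± 13.9 TPM) overlapped each other and were clear of NRF2 KO/CDDO-Me (228 ± 14.8 TPM), itself clear of media/CDDO-Me (187 ± 20.5 TPM), and the 5 lowest groups, media/CDDO-Me included, overlapped their neighbours among them. For Ncf4, KEAP1 KO/CDDO-Me (139.96 ± 22.3 TPM) and WT/CDDO-Me (111 ± 7.37 TPM) were clear of the group above each, and the other 6 overlapped. For Cyba and Rac2, every pair of neighbours overlapped. After scaling, some of the clear pairs overlapped, namely media/CDDO-Me with NRF2 KO/vehicle for Cybb and NRF2 KO/CDDO-Me with media/CDDO-Me for Ncf1. For Ncf4, both clear groups then overlapped the group above.

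Ratios were taken within each library. Cyba exceeded Cybb in all 24 libraries. The ratio was 6.33, 6.25 and 5.23 in media/vehicle, 8.96, 9.84 and 8.83 in WT/vehicle and 8.75, 9.22 and 9.76 in KEAP1 KO/vehicle. With CDDO-Me it lay between 3.32 and 4.07 in the 9 libraries given media, WT CM or KEAP1 KO CM, below every vehicle library of those media. In NRF2 KO CM it was 5.30, 5.55 and 1.18 with vehicle and 3.82, 3.91 and 1.42 with CDDO-Me, and the last value of each is from a replicate 3 library. The ratio of Ncf1 to Ncf4 was 2.54, 2.62 and 2.54 in WT/CDDO-Me and 1.98, 2.26 and 2.30 in KEAP1 KO/CDDO-Me, against 0.54 to 1.18 in the other 18 libraries.

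**Figure D4:**
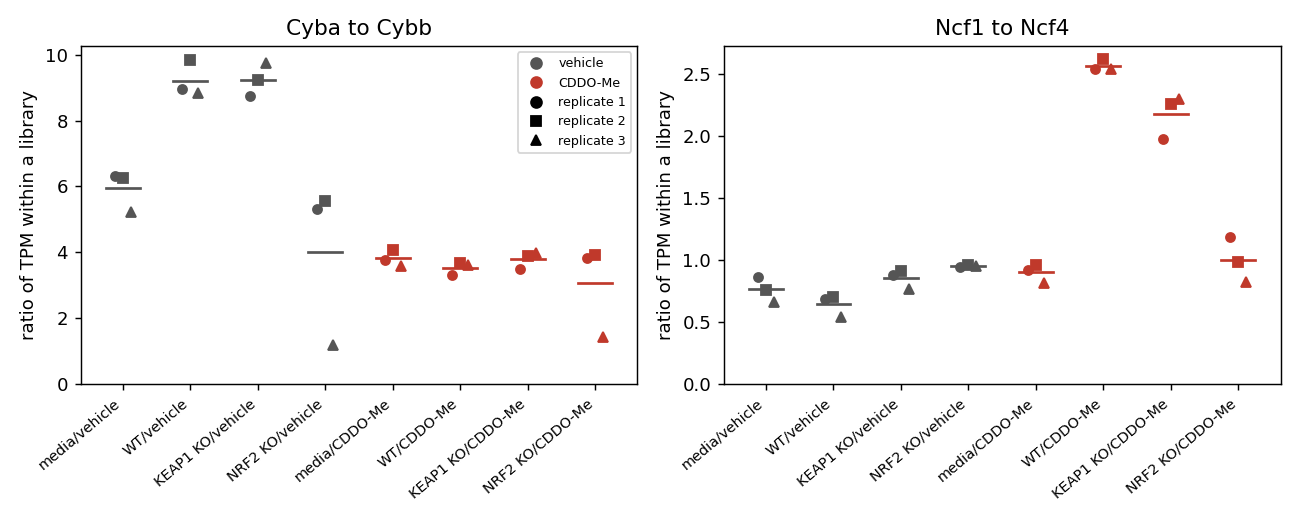
Ratio of TPM within each library (y axes, from 0) for Cyba to Cybb and Ncf1 to Ncf4, by group (x axes); symbols are single libraries and lines the means of 3. Cyba to Cybb is highest with WT or KEAP1 KO CM and vehicle, and Ncf1 to Ncf4 stands at 1.98 or more in the WT and KEAP1 KO groups with CDDO-Me.

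Rac1, the widely expressed Rac, had group means from 472 to 541 TPM and was above Rac2 in every group mean, with a mean ratio to Rac2 of 1.57 to 1.66 under vehicle and 2.02 to 2.19 under CDDO-Me. Against media/vehicle, Rac1 was called higher in WT/CDDO-Me (0.40, SE 0.11, adjusted p = 0.008) and KEAP1 KO/CDDO-Me (0.32, SE 0.11, adjusted p = 0.03), and neither call was kept without scaling between libraries (0.19 and 0.15). The second was also lost without media/vehicle replicate 1 (0.31) or 2 (0.31), or KEAP1 KO/CDDO-Me replicate 1 (0.35) or 3 (0.27).

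Cybc1, the chaperone that gp91phox and p22phox need, had means of 75.3 to 125 TPM and no call in the 24 libraries. The lowest mean was in NRF2 KO/vehicle, at 106, 93.0 and 27.0 TPM, the last from the library low in GC-rich transcripts. In WT CM it was at 102, 99.1 and 83.1 TPM with vehicle and 134, 132 and 110 TPM with CDDO-Me. In KEAP1 KO CM it was at 105, 101 and 81.3 TPM with vehicle and 123, 129 and 115 TPM with CDDO-Me. In both, the CDDO-Me libraries lay above the vehicle libraries before scaling. Rac3 had means of 9.69 to 17.5 TPM and no call. Of the paralogs, Nox4 and the organiser Noxo1 stayed at means of 0.57 to 1.74 and 0.74 to 2.11 TPM. Noxo1 was called higher with CDDO-Me in WT CM (0.70, SE 0.21, adjusted p = 0.017) at means of 0.74 and 1.68 TPM. The call was lost without WT/vehicle replicate 1 or WT/CDDO-Me replicate 3. Under vehicle Noxo1 was called lower with WT CM than with NRF2 KO CM, at means of 0.74 and 2.11 TPM, where 10.6% of all genes were called. That call was lost without any 1 WT/vehicle library, and without both NRF2 KO replicate 3 libraries (-0.49, adjusted p = 0.11). It was also lost without NRF2 KO/vehicle replicate 3 alone or with only the compared groups in the fit. Nox1, Nox3, Duox1 and Duox2 had no group mean above 0.315 TPM, and Noxa1 was listed at 0 in all 24 libraries. Of the catalytic NOX and DUOX genes, Cybb was thus the abundant one in these cells.

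A further list held 42 genes that act on the oxidase or its products, of which 40 were tested: Rac regulators, kinases of p47phox, lipid kinases, transcription factors and enzymes that remove superoxide and peroxide. CDDO-Me raised 4 and lowered 0 of the 40 in media, raised 11 and lowered 2 in WT CM, raised 13 and lowered 3 in KEAP1 KO CM and raised 7 and lowered 1 in NRF2 KO CM. Of all genes, 6.02%, 27.9%, 28.8% and 9.61% were called in the same order. The median log2 difference of the list was 0.08, 0.03, 0.07 and 0.14, beside -0.00, -0.01, -0.02 and 0.02 over all genes. Irf1 and Irf8, transcription factors known to act on oxidase genes, rose with CDDO-Me in WT CM and KEAP1 KO CM. Irf1 went from a mean of 81.0 to 930 TPM and from 71.0 to 911 TPM, while in media and NRF2 KO CM its means did not exceed 74.1 TPM. Irf8, a myeloid factor, went from 99.7 to 471 TPM and from 90.5 to 379.7 TPM. The log2 differences in WT CM were 3.69 (SE 0.24) for Irf1 and 2.36 (SE 0.21) for Irf8, with adjusted p of 4.2e-10 and 3.3e-08. These 2 factors were called with CDDO-Me in the 2 media in which Ncf1 was called; whether they act on Cybb or Ncf1 here was not tested. Spi1, which encodes PU.1, was not called in any of the 4 media.

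Among regulators, Pla2g4a, a phospholipase whose arachidonate promotes the burst, rose with CDDO-Me in all 4 media, by 0.81 in media, 2.06 in WT CM, 1.88 in KEAP1 KO CM and 0.67 in NRF2 KO CM (SE 0.13 for each; adjusted p = 0.0006, 3.3e-10, 1.4e-09 and 0.0025). Pak1, a Rac effector kinase, rose by 1.60 in WT CM and 1.504 in KEAP1 KO CM (SE 0.12; adjusted p = 3.5e-09 and 9e-09). Hvcn1, the proton channel that balances the charge the oxidase moves, rose in media from a mean of 176 to 555 TPM (log2 difference 1.67, SE 0.23, adjusted p = 8.8e-05) and in NRF2 KO CM from 117 to 366 TPM (1.70, SE 0.23, adjusted p = 5e-05), and had means of 91.1 and 104 TPM in WT/CDDO-Me and KEAP1 KO/CDDO-Me. Arhgap25, a Rac GTPase-activating protein, fell in WT CM by -1.37 and in KEAP1 KO CM by -1.11 (SE 0.12; adjusted p = 2.9e-08 and 5.1e-07). Of 5 listed enzymes that use superoxide or peroxide, 4 were tested, and CDDO-Me raised 2 in media, 3 in WT CM, 3 in KEAP1 KO CM and 2 in NRF2 KO CM. Cat (catalase) was called higher in all 4, by 2.18 in media (adjusted p = 2.7e-07) and 2.08 in NRF2 KO CM (adjusted p = 3.1e-07; SE 0.19), and Sod1 rose by 0.72 in media, 1.001 in WT CM, 0.99 in KEAP1 KO CM and 0.68 in NRF2 KO CM (SE 0.15), with adjusted p of 0.0051 or lower.

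Under vehicle, the same list had 2 genes higher and 3 lower with WT CM than with media, and 3 higher and 4 lower with KEAP1 KO CM, where 7.23% and 8.06% of all genes were called. Prkcd, a kinase of p47phox, was higher by 0.70 with WT CM (SE 0.15, adjusted p = 0.0064). Its means were 356 TPM in media/vehicle, 554 TPM in WT/vehicle and 519 TPM in KEAP1 KO/vehicle. KEAP1 KO CM raised Pla2g4a by 0.65 (SE 0.13, adjusted p = 0.0034). Arhgap25 was lower with WT CM by -0.40 (SE 0.12, adjusted p = 0.047) and with KEAP1 KO CM by -0.85 (SE 0.12, adjusted p = 8.9e-05). Of the 4 tested enzymes that use superoxide or peroxide, 1 was called higher and 2 lower with each of these CM. Sod1 was lower by -0.57 (SE 0.15, adjusted p = 0.022) with WT CM and -0.62 (SE 0.15, adjusted p = 0.012) with KEAP1 KO CM. With NRF2 KO CM, limma called 0 of the 40 against media, and 1 of all 13661 genes.

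The 5 genes nearest to each member in pattern were taken by Pearson's r of log2 scaled TPM over the 24 libraries, among 8470 genes with a mean of at least 10 TPM; the libraries share groups, so r is a description. For Cybb these were Ptprc (CD45, 0.97), Camk1d (0.95), Tgif1 (0.95), Smpdl3a (0.95) and Slc8a1 (0.95), and for Ncf1 Lsr (0.98), Pstpip2 (0.96), Dram1 (0.96), Ptgs2 (0.96) and Gpr141 (0.95). Ncf4 was followed less closely, by Tcp11l2 (0.90), Mindy1 (0.88), Gsto1 (0.86), Bnip3l (0.86) and Prune1 (0.85), and Rac2 by Gmfb (0.86), Wdr26 (0.86), H3f3b (0.86), Ctbs (0.84) and Dennd6a (0.84). Cyba was nearest to Igsf8 (0.98), Cyb561d1 (0.97), Usp5 (0.97), Mau2 (0.97) and Bckdha (0.97); over the 22 libraries without NRF2 KO replicate 3, these fell to 0.91, 0.93, 0.84, 0.85 and 0.83, and Atf6 (0.94) was then nearest. Over the same 22 libraries the nearest gene was Vps37b (0.97) for Cybb, Lsr (0.98) for Ncf1, Adss1 (0.93) for Ncf4 and Zfp787 (0.89) for Rac2, and none of the 5 genes named for Rac2 stayed among its nearest 5. Between the members themselves, r was 0.80 for Cybb with Ncf1, 0.51 for Ncf4 with Rac2 and 0.15 for Cybb with Cyba over 24 libraries, and 0.80, 0.45 and 0.77 over the 22.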

How the data were processed

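Messenger RNA of 24 BMDM libraries was sequenced, 3 in each of 8 groups assigned from the sample titles. The authors quantified reads with kallisto on GRCm39, per the labels; the deposited unit is TPM, length-scaled, with 35770 named genes and a fixed sum per library. The table holds no read depth for single libraries, so no counting error is given. 1 row without a gene name, 0.0199% to 0.0635% of TPM, was left out. No count test was used because the values are TPM. kallisto divides reads that fit several transcripts, so the levels of Rac1, Rac2 and Rac3, which are alike in coding sequence, are estimates.

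Libraries were scaled by TMM factors (M trimmed by 30%, A by 5%). Levels and overlaps of groups are given before this scaling unless stated, and log2 differences after it. The filter kept 13661 genes whose TPM exceeded 1 in 3 or more of the libraries, and values entered as log2 of scaled TPM plus a pseudocount of 1. This scale understates changes of low genes. Groups were compared with limma 3.58.1 (R 4.3.3), with 1 coefficient per group, 16 residual degrees of freedom and a trend on the mean level. P-values were two-sided and adjusted by Benjamini-Hochberg over all genes tested in a comparison, called under 0.05. The fit was tested on simulated data. Coordinates, exons and transcript GC content came from the GENCODE annotation of GRCm39; promoters were RefSeq sequences listed for GRCm38.p6 and placed in GRCm39 by exact match. The members and gene lists were chosen with earlier results of these data known. Some listed genes are not reported here. The text names all 5 members, the other subunits and paralogs, up to 4 further genes per comparison by adjusted p, and the 5 genes nearest in pattern to each member. Spi1, Nqo1, S100a8, Cd68, Fcgr1 and Xcr1 were chosen after their values were seen. So were Irf8, Cat, Sod1, Arhgap25 and Prkcd in comparisons outside that number. Figures were drawn with matplotlib 3.10.9.

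Titles give the same replicate numbers in every group, and no label says whether a number marks a shared source or batch. Same-numbered libraries deviated together, with a correlation above 0.1 for every pair, in 6 of 13 comparisons of 2 groups (over all pairs 0.062 to 0.719); there the fit with a replicate block is given where it changed a call. Alternatives changed the scaling, pseudocount, filter, variance model, library weights, samples fitted, block and libraries left out.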

Additional observations from a re-analysis of the deposited data

Results flagged for a closer look

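The effect of CDDO-Me differed between a conditioned medium and media, by limma's test of the difference itself with Benjamini-Hochberg adjustment, for 13 results among the members and the genes named by the rule; over all genes it called 15.3% in WT CM and 14.8% in KEAP1 KO CM. Cybb responded more by 1.16 (SE 0.27, adjusted p = 0.0053) in WT CM and 1.18 (SE 0.27, adjusted p = 0.0046) in KEAP1 KO CM, and Ncf1 by 0.86 (SE 0.21, adjusted p = 0.0066) and 0.80 (SE 0.21, adjusted p = 0.01), all on the log2 scale. These 4 differences were called in all 35 alternatives.

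The transcription factor genes Irf1 and Irf8 differed by 3.38 and 2.64 in WT CM and by 3.54 and 2.50 in KEAP1 KO CM. The kinase gene Pak1 differed by 1.31 in WT CM and 1.21 in KEAP1 KO CM, and the proton channel gene Hvcn1 by -2.18 (SE 0.33, adjusted p = 6.8e-05) and -1.85 (SE 0.33, adjusted p = 0.00043).

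Noxo1 differed by 1.02 (SE 0.30, adjusted p = 0.025) in WT CM, at group means of 0.74 to 1.68 TPM. That call was lost without media/vehicle replicate 1 or 2, WT/vehicle replicate 1, media/CDDO-Me replicate 2, or WT/CDDO-Me replicate 1 or 3 (0.82 to 1.01).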

How the results depend on the processing

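Of 20 called member comparisons, 14 were called in all 35 alternatives, and none of the 20 turned direction. The other 6 are given with their values beside the results. Of 256 calls of other listed genes, 160 were kept in every alternative. The number of member calls for CDDO-Me against vehicle, 5 of 20, was 10 with libraries weighted by quality, and 8 with the replicate block, without both NRF2 KO replicate 3 libraries, or with only the compared groups; leaving out 1 library gave 5 to 8. For the difference of that effect between media, 4 of 20, it was 7 with library weights and 7 without both NRF2 KO replicate 3 libraries. The replicate block gave 5 calls in place of 4 of 30 under vehicle, 5 in place of 4 for the differences and 8 in place of 7 of 15 against media/vehicle. It also called Ncf1 between WT CM and NRF2 KO CM (-0.26, adjusted p = 0.024), where not every same-numbered pair had a correlation above 0.1. It also called the Ncf4 difference between WT CM and media (-0.90, adjusted p = 0.0024).

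Values of Cyba that involve NRF2 KO CM turned direction in some settings, and none of the turned values was called. WT CM against NRF2 KO CM was -0.01 with library weights. Without NRF2 KO/vehicle replicate 1 it was 0.93 and called (adjusted p = 0.038). NRF2 KO/CDDO-Me against media/vehicle was -0.45 and called without NRF2 KO/vehicle replicate 3 (adjusted p = 0.047). KEAP1 KO CM against NRF2 KO CM was -0.18 with library weights, -0.145 without both replicate 3 libraries, and -0.145 to 0.73 with 1 library left out. CDDO-Me in NRF2 KO CM was -0.014 with library weights, -0.009 without both, and -0.24 to 0.64 with 1 left out. Its difference from media was -0.18 to 0.70 with 1 left out. Of the 85 member comparisons, 40 were smaller than 0.3 and called in no setting, and 25 of these turned direction in some setting.

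Without scaling, the median of all genes fell by 0.123 with CDDO-Me in WT CM and by 0.166 in KEAP1 KO CM, and the genes called higher went from 1972 of 3809 to 1581 of 4040, and from 1973 of 3932 to 1563 of 4513. Against media/vehicle they went from 2000 of 3662 to 1433 of 4232 for WT/CDDO-Me. No called member comparison turned direction. Over all genes, library weights called 7127 with CDDO-Me in WT CM, against 5838 without both NRF2 KO replicate 3 libraries. For KEAP1 KO CM against WT CM under vehicle, library weights called 975 genes in place of 0. They called 7 in place of 0 for the difference of the CDDO-Me effect between NRF2 KO CM and media, and 26 in place of 0 for that between KEAP1 KO CM and WT CM.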
